A study of Mus musculus with 3 samples.

Results

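Mouse genes of very great length hold much of the non-coding DNA that lies inside transcribed units, and most of them are expressed in neurons. The regions described here are the open chromatin regions inside such genes in 2 types of cortical projection neuron. They were defined by position alone: peaks of 3 deposited ATAC-seq lists that overlapped by at least 1 bp were merged on chromosomes 1 to 19, and a merged region was taken where its strongest summit lay inside a RefSeq protein-coding gene of at least 500 kb (GRCm38.p6, the build also named mm10) and more than 1 kb from both ends of that gene. This gave 12140 of 200802 regions, inside 216 genes that together cover 180 Mb.

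ATAC-seq marks open chromatin by inserting sequencing adapters where a transposase can reach the DNA. The lists came from sorted mouse brain neurons, 50000 cells per library: callosal projection neurons, which connect the cerebral hemispheres, gave 2 of the libraries (CPN 1 and CPN 2), and corticospinal motor neurons, which project from cortex to spinal cord, gave 1 (CSMN). The labels give no genotype, strain, age, treatment or sorting marker, and say of the libraries only that each was a biological replicate. The series as a whole concerns a microRNA cluster downstream of Fezf2 in these neurons, and these libraries bear on which parts of the genome are open in each neuron type.

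Very long neuronal genes encode mostly cell adhesion molecules, synaptic scaffolds, receptors, ion channels and some transcription factors. Nearly all of their length is intron. Regulatory elements inside those introns can act on the host gene or on other genes, and many of the genes have further start sites deep inside that give shorter proteins. Some of the longest also lie at common fragile sites, where chromosomes break when replication is slowed.

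The lists held 134018 peaks for CPN 1, 158779 for CPN 2 and 98067 for CSMN, and 6.01%, 5.76% and 5.78% of the peaks on chromosomes 1 to 19 lay inside the long genes. The median fold enrichment over local background, as the authors' peak caller gave it, was 3.70, 3.65 and 2.71 for peaks inside the long genes and 3.82, 3.65 and 2.86 for the others. Read depth is not in the lists, so their length and strength stand in for it. Markers of excitatory projection neurons had a peak at a gene end in every library, at 6, 7 and 6 of 7 genes in CPN 1, CPN 2 and CSMN. Markers of CSMN and subcerebral neurons had one at 6 of 6 genes in each library. Those of CPN and upper-layer neurons had one at 6, 6 and 5 of 6, so peaks at these markers hardly separated the libraries. Markers of other cells also had peaks, at 6 of 6 interneuron genes and 4 of 4 endothelial genes in each library, at 3 to 4 of 5 astrocyte genes, 3 to 4 of 6 oligodendrocyte lineage genes and 3 to 5 of 7 microglia genes. Their part in the results below was not tested. No test between the neuron types was run, since CSMN had a single library and any spread would come from the CPN pair alone. The distance between CPN 1 and CPN 2 is given as the spread between replicates, and the intervals on densities (exact Poisson) and shares (Wilson), all at 95%, cover counting error only.

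Annotated start sites deep inside the long genes were mostly open in both neuron types. RefSeq start windows, 250 bases before to 50 bases after a start, were given for 136 starts at the 5′ end of long genes and for 135 starts farther inside, and a peak counted where it overlapped the window. All 3 libraries had a peak at 93 of the 135 internal starts (68.9%, interval 60.6 to 76.1), against 83.8% of the 5′ starts and 45.8% of the 31125 starts of other genes. Of 112 internal starts more than 10 kb inside, 74 had a peak in all 3 libraries and 27 in none. The strongest were those of Cdh18, a cadherin of synaptic contacts, and Ank2, which encodes the membrane scaffold ankyrin-B. At the Cdh18 start the folds of CPN 1, CPN 2 and CSMN, named in this order throughout, were 21.0, 27.4 and 13.8, and at the Ank2 start they were 20.3, 22.0 and 12.2. The 250 bases before each of these starts are printed 5′ to 3′ from RefSeq (GRCm38.p6), with every CG dinucleotide in capitals, to show what the most open intragenic starts look like.
Cdh18, start 488 kb inside, peak in all 3, chr15:23036213-23036462 (+ strand): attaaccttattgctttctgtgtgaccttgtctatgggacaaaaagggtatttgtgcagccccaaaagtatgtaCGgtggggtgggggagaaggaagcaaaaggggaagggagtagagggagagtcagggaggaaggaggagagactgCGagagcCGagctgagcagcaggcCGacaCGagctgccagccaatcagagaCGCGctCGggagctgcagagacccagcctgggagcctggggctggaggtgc
Ank2, start 91.3 kb inside, peak in all 3, chr3:127409059-127409308 (- strand): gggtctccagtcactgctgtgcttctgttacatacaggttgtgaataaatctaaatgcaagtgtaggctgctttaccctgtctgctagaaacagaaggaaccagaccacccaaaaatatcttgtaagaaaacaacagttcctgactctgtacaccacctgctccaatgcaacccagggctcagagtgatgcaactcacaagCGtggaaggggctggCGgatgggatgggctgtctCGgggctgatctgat

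Further start sites in the same host gene could differ fully. Among starts more than 10 kb inside, 12 genes had both a start with a peak in all 3 libraries and a start with none. The next sequences pair the 2 kinds of start within 4 such genes, each start more than 5 kb from any other listed one. Nrxn3 encodes a neurexin, a presynaptic adhesion molecule whose short form starts deep in the gene. Dlg2 encodes PSD-93, a postsynaptic scaffold. Lingo2 encodes a leucine-rich repeat membrane protein, and Cacna1c encodes the pore of an L-type calcium channel.
Nrxn3, start 1090 kb inside, peak in all 3, chr12:89812233-89812482 (+ strand): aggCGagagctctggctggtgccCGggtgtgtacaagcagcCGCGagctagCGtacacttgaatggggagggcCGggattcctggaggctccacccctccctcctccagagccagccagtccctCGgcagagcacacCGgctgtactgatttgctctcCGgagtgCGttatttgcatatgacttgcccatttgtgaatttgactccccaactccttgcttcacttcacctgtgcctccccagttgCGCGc
Nrxn3, start 231 kb inside, no peak, chr12:88953140-88953389 (+ strand): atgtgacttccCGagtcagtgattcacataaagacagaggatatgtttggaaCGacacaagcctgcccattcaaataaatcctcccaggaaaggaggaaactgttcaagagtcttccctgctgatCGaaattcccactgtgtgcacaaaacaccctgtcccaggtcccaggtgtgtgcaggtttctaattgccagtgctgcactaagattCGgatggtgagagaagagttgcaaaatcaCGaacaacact
Dlg2, start 1759 kb inside, peak in all 3, chr7:92234720-92234969 (+ strand): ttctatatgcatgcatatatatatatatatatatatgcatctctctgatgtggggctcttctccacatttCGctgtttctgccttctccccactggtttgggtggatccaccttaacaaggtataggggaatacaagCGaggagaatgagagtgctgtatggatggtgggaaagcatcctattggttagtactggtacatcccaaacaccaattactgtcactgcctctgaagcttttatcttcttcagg
Dlg2, start 1586 kb inside, no peak, chr7:92062144-92062393 (+ strand): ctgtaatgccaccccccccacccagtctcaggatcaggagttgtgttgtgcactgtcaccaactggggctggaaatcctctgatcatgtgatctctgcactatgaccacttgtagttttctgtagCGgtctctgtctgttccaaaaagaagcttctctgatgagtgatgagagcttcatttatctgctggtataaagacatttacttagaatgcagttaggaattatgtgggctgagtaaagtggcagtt
Lingo2, start 1107 kb inside, peak in all 3, chr4:35845205-35845454 (- strand): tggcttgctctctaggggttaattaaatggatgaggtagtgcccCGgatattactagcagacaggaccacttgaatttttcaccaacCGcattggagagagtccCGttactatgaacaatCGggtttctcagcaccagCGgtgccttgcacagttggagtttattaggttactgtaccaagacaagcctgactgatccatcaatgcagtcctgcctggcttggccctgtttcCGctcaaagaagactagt
Lingo2, start 233 kb inside, no peak, chr4:36718964-36719213 (- strand): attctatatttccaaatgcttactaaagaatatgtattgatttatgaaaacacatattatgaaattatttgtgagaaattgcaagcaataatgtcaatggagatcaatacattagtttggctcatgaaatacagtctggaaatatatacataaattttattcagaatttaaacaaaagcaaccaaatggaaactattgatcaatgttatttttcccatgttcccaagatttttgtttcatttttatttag
Cacna1c, start 88.9 kb inside, peak in all 3, chr6:119108496-119108745 (- strand): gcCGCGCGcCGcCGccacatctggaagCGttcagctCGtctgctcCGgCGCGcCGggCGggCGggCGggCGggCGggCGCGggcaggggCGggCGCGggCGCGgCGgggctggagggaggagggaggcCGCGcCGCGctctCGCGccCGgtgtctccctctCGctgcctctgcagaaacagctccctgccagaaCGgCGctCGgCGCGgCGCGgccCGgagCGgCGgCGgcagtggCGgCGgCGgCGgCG
Cacna1c, start 439 kb inside, no peak, chr6:118757975-118758224 (- strand): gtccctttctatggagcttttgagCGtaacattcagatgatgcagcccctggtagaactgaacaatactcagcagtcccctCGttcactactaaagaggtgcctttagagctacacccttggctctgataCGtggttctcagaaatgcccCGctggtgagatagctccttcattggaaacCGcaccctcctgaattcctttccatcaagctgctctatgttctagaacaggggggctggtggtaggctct

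At the Nrxn3 start 1090 kb inside, the folds were 9.43, 11.7 and 7.82. The Dlg2 start 1759 kb inside had 11.5, 9.79 and 7.38, the Lingo2 start 1107 kb inside 11.9, 12.9 and 7.05, and the Cacna1c start 88.9 kb inside 12.9, 10.8 and 6.31. Their partners had no peak in any list. In each of the 4 printed pairs the open start held more CG dinucleotides in the printed bases, 12 against 5 in Nrxn3, 2 against 1 in Dlg2, 6 against 0 in Lingo2 and 48 against 5 in Cacna1c. Of 7 genes that gave such a pair 6 had this order, and in Etl4 the open start 609 kb inside held 2 and the closed one 600 kb inside 9. Over all internal starts the median was 8 where all 3 libraries had a peak and 2 where none did, and 10 or more CG dinucleotides stood in 45.2% of the first and 0% of the 31 others, beside 38.3% of all listed starts. The ranges overlapped: among starts more than 10 kb inside, open ones held 1 to 48 and those with no peak 0 to 9. Starts of other genes were split in the same way, with medians of 17 where all 3 libraries had a peak and 2 where none did. There 76.6% and 3.74% held 10 or more. The difference was therefore not particular to internal starts, and open internal starts held fewer at the median than open starts of other genes. The GC box GGGCGG was found on either strand of the 300-base window in 37.6% of the open internal starts, 6.45% of those with no peak and 36.0% of all listed starts. The TATA box letters TATAAA were found in 4.30%, 25.8% and 13.6%. The GC box letters hold a CG dinucleotide themselves, and a match is a description of letters and not a binding site. The cyclic AMP response element TGACGTCA stood in 0%, 3.23% and 1.83% of the windows, and the E-box CAGATGG in 4.30%, 6.45% and 5.32%.

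Internal starts seldom separated the neuron types. Of the 112 starts more than 10 kb inside, 11 had a peak in 1 or 2 libraries. The starts of other genes had this at 2727 of 31125, so it was not particular to internal starts. Among the 11, 7 had a peak in both CPN libraries and not in CSMN, a split not counted for other starts. These lay in Dpp6, a potassium channel partner (folds 5.07 and 4.55), Kalrn, a guanine nucleotide exchange factor of dendritic spines (4.75 and 4.28), Sox6, a transcription factor (5.39 and 5.54), Sema6d, a semaphorin (3.61 and 4.11), Rbfox1, a neuronal splicing regulator (3.12 and 3.51), Thsd4, an extracellular matrix gene (3.12 and 3.80), and Esrrg, a nuclear receptor (6.67 and 8.09). The Esrrg window 43.2 kb inside adjoined another at 43.7 kb that CSMN shared, with a fold of 3.30. A single one of the 11, in Mctp1, had a peak in CSMN and 1 CPN library. Of the 93 internal starts with a peak in all 3 libraries, 82 had a CSMN fold below both CPN folds and 2 had one above both. One of these lay 615 kb inside Dlg2, with folds of 5.67, 5.84 and 7.54, and the other 1.56 kb inside Car10, with 3.61, 3.40 and 4.07. Lower CSMN folds were not particular to internal starts. Over all regions on chromosomes 1 to 19 the median folds were 3.82, 3.77 and 2.86. The same count is not given for other starts.

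Open regions were sparser in the long genes than in shorter ones. The 12140 regions gave 67.6 regions per Mb of gene body (interval 66.4 to 68.8), against 117 per Mb in the 2097 genes of 100 to 500 kb, a ratio of 0.578. Density was 122 per Mb in genes of 100 to 200 kb, 113 in genes of 200 to 500 kb, 80.1 in genes of 500 to 1000 kb and 49.3 in the 55 genes of 1000 kb and over, below the 59.8 per Mb found between genes. The ratio stayed below 1 under each alternative tried, from 0.575 to 0.622, and was 0.422 for genes of at least 1000 kb. The length limit itself cut through a continuous range. The 3 genes just inside it, Edil3, Dock1 and Samd12, had 36.0, 75.9 and 51.9 regions per Mb, and the 3 just outside, Dnm3, Lrrc7 and Cacna1e, had 132, 48.7 and 83.3.

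**Figure D1:**
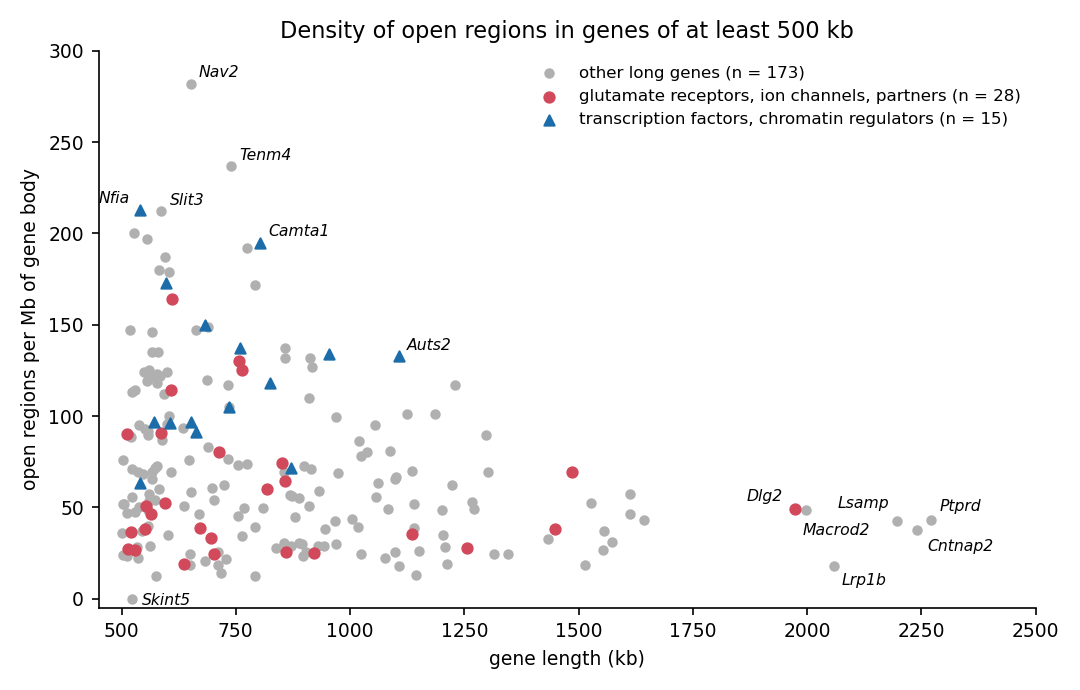
Open regions per Mb of gene body (vertical axis) against gene length in kb (horizontal axis) for the 216 genes of at least 500 kb, each point 1 gene. Transcription factor and chromatin genes (blue triangles) sit between 63.1 and 213 per Mb, receptor and channel genes (red) between 18.9 and 164.

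Long genes differed from each other far more than the length classes did. Density ran from 0 to 282 regions per Mb with a median of 60.2. The interval lay above the pooled 67.6 per Mb in 67 genes, below it in 84 and across it in 65. Length and density were weakly related across genes (Pearson r = -0.29, Spearman coefficient -0.25 over 216 genes, which share the same 3 libraries), a description with no test.

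The 6 densest genes were all of 740 kb or less. Nav2, which encodes a cytoskeletal protein of neurite growth, held 183 regions in 651 kb, 282 per Mb (243 to 326), with 134, 135 and 88 peaks in CPN 1, CPN 2 and CSMN. Tenm4, a teneurin of synaptic adhesion, had 237 per Mb (203 to 275), and Nfia, a nuclear factor I transcription factor, 213 per Mb (176 to 256). Slit3, an axon guidance ligand, had 212, St6galnac3, a sialyltransferase, 200, and Kirrel3, an immunoglobulin adhesion molecule, 197 per Mb. The intervals of Nav2, Tenm4 and Nfia overlapped, as did those of Nfia, Slit3, St6galnac3 and Kirrel3. The order within each of these sets is within counting error. A single 100 kb window of Nav2 held 37 regions, and the longest stretch without a region in it was 15.9 kb.

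At the sparse end, Skint5, of a family known from epidermal T cells, had 0 regions in 522 kb, which allows up to 7.1 per Mb. Zfp804b, a zinc finger gene, had 7 regions and 12.2 per Mb, Lrrtm4, a synaptic adhesion gene, 10 regions and 12.7, Sgcz, a sarcoglycan, 15 and 13.1, and Cntnap5b, a contactin-associated protein, 10 and 14. The lipoprotein receptor gene Lrp1b had 37 regions in 2058 kb, 18.0 per Mb (12.7 to 24.8). In some of these the CSMN list held more peaks in spite of its shorter length, with 1, 2 and 6 peaks of CPN 1, CPN 2 and CSMN in Zfp804b and 6, 6 and 9 in Cntnap5b, whereas Sgcz had 11, 9 and 8. Deserts were common: the longest stretch without a region had a median of 91.2 kb and reached 200 kb in 19 genes, with 403 kb inside Dpp10, which encodes a potassium channel partner.

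The 6 longest genes all had an interval below the pooled density. Ptprd, a receptor phosphatase, had 43.2 regions per Mb in 2271 kb, Cntnap2, a contactin-associated protein of axonal domains, 37.5 in 2241 kb, and Lsamp, a limbic adhesion protein, 42.8 in 2197 kb. Macrod2, an ADP-ribose hydrolase gene, had 48.6 and Dlg2 49.2. Between Lrp1b and the other 5 the intervals did not overlap, whereas those of the other 5 all did.

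Sharing between libraries was close to that of the genome as a whole. All 3 libraries had a peak at 26.6% of the 12140 regions (25.8 to 27.4), beside 30.3% of all regions on chromosomes 1 to 19. Regions that both CPN libraries had and CSMN lacked, called CPN-only, made up 21.2% against 19.5% of all regions, and regions that CSMN had and both CPN libraries lacked, called CSMN-only, 13.1% against 11.6%. A further 14.2% were in CPN 1 alone and 20% in CPN 2 alone, so that disagreement between the CPN replicates was larger than the CSMN-only class. Width and sharing went together, in part by construction, since the width of a merged region grows with the peaks merged. Of 291 regions of 1000 bp and over, 96.2% had a peak in all 3 libraries, against 0.463% of the 2806 regions under 150 bp. The same held at start sites, where 68.8% of the 160 regions within 500 bp of an annotated start were in all 3 libraries.

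The CSMN-only class counted 1588 regions and the CPN-only class 2568, so that CSMN-only regions made up 38.2% (36.7 to 39.7) of both classes together, beside 37.4% over all regions. This percentage is called the CSMN-only share. The share was 30.6% in genes of 100 to 500 kb, 36.0% in genes of 500 to 1000 kb and 43.4% in those of 1000 kb and over, near the 43.3% found between genes. Its size moved with how the lists were cut. With lists cut to equal length the share in long genes was 58.3%, and counting just strong peaks, those whose −log10 q was 5 or more, it was 10.8%. No majority for either neuron type can therefore be read from it, and the comparisons below are between genes within 1 setting. With a CPN library set apart in the same way, the share of its lone regions was 85.1% for CPN 1 and 88.8% for CPN 2, above the value for CSMN.

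Genes split widely on this share. Of the 170 long genes with at least 10 regions in these classes, the interval lay above 50% in 21, below 50% in 73 and across it in 76. Over all 216 genes, 129 had more CPN-only and 81 more CSMN-only regions, and 6 had equal numbers. Since the pooled share moves with the cut of the lists, these counts give no majority for either neuron type. They were not made for shorter genes. The share was lower at higher density of regions, a measure that rests on the same peaks: in 4 groups of 54 long genes from the sparsest to the densest, it was 72.6%, 46.8%, 36.4% and 24.7% (Pearson r = -0.47, Spearman coefficient -0.50 over the 170 genes, a description with no test).

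Transcription factor and chromatin genes stood at the CPN side and at high density, where long genes in general had low shares. The 15 long genes of this list had a median of 118 regions per Mb, beside 60.2 for all long genes, and 13 of the 15 had an interval above the pooled density. They held 362 CPN-only and 95 CSMN-only regions, a share of 20.8% (17.3 to 24.7), and 13 of the 15 had more CPN-only regions. In the densest group its 9 genes had a share of 15.4% (11.9 to 19.5), against 27.0% (24.7 to 29.3) in the 45 other genes there. In the next group its 6 genes had 37.5% (29.1 to 46.7), against 36.3% in 48 others, so the list did not stand apart there. Auts2, a chromatin regulator of neuronal development, had 43 CPN-only and 4 CSMN-only regions (8.51%), and its peaks numbered 105 in CPN 1, 121 in CPN 2 and 42 in CSMN. Camta1, a calmodulin-binding transcription activator, had 42 and 7, Nfia 35 and 4, Npas3 34 and 5, and Zbtb20 32 and 4. Sox5, which controls the timing and fate of subcerebral neurons, also lay on the CPN side, with 27 and 10. The exceptions were Hdac9, a histone deacetylase, with 10 CPN-only and 14 CSMN-only regions, and Rarb, a retinoic acid receptor, with 10 and 12. The list stayed below all long genes with equal list lengths (38.2% against 58.3%) and with strong peaks (1.56% against 10.7%, counting a region once for each long gene that holds it).

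RNA-binding genes were few. The 4 genes held 85 CPN-only and 19 CSMN-only regions, a share of 18.3% (12 to 26.8). Celf2, a splicing and RNA stability regulator, had 38 and 6, Rbfox1 24 and 7, and Rbms3 19 and 1, whereas Khdrbs2 had 4 and 5. Axon guidance genes, 10 in number, had a median of 93.5 regions per Mb and a share of 28.9% (23.6 to 34.8), with more CPN-only regions in 9 of 10. Dab1, the adaptor of the reelin pathway, had 36 and 7, Kalrn 27 and 9, and Slit3 27 and 11, though with equal list lengths Slit3 turned to a CSMN-only share of 61.5%.

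The receptor and channel list, which also holds scaffolds and other partners, had the highest share of the 8 lists. Its interval held 50%, and its density was below that of all long genes. The 28 long genes of the list of glutamate receptors, ion channels and their partners had a median of 47.7 regions per Mb and held 210 CPN-only and 239 CSMN-only regions, a share of 53.2% (48.6 to 57.8). More CSMN-only regions stood in 18 of the 28, more CPN-only regions in 8, and equal numbers in Syt1 and Fstl5. In the sparsest group the 10 genes of the list had a share of 72.2%, against 72.6% in the 44 others, and in the densest its 4 genes had 28.6% (21.2 to 37.3) against 24.4%. Between these the list was higher, at 63.7% (55.3 to 71.3) against 43.4% (39.9 to 47.1) in the second group and 53.4% (44.4 to 62.3) against 34.3% (31.4 to 37.4) in the third. Dlg2 had 7 CPN-only and 31 CSMN-only regions, 81.6% (66.6 to 90.8), with 54, 61 and 69 peaks in CPN 1, CPN 2 and CSMN. Kcnip4, a potassium channel partner, had 3 and 15, Ryr3, an intracellular calcium channel, 6 and 15, and Magi2, a synaptic scaffold, 11 and 20. The metabotropic glutamate receptor genes Grm8, Grm5 and Grm7 had 2 and 10, 3 and 8, and 1 and 5, and the GABA receptor subunit gene Gabrg3 had 4 and 12. The list also held genes of the opposite pattern: Magi1, another scaffold, had 25 and 1, Cacna2d3, a calcium channel subunit, 16 and 1, Dlgap2, a postsynaptic scaffold, 23 and 6, Cacna1c 24 and 13, and Kcnma1, a large-conductance potassium channel, 12 and 2. Among the 8 gene lists this one had the highest share as deposited, with equal list lengths (70.1%) and with strong peaks (18.9%). With strong peaks its interval (14.3 to 24.4) overlapped that of cell adhesion genes (11.7 to 17.3). It also overlapped that of genes known mainly outside neurons (8.51 to 19.1), so the rank there is within counting error. At strong peaks Dlg2 itself turned, with a share of 20%, and Magi2 was at 0%. Leaving out CPN 1 put Magi2 at 41.9%, and equal list lengths put Cacna1c at 54.8%.

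Cell adhesion genes, the largest list with 44 long genes, had a share of 40.8% (37.8 to 44.0), near that of all long genes, and a lower density, 58.6 regions per Mb (56.4 to 60.7) with a median of 49.6 over genes. More CPN-only regions stood in 28 and more CSMN-only regions in 16. Tenm2, a teneurin, had 38 and 10, Tenm4 32 and 16, and Ptprn2, a dense-core vesicle phosphatase, 22 and 16, whereas Cntnap2 had 12 and 19. With equal list lengths Tenm4 turned to a share of 62.5% and Ptprn2 to 76.5%. Cntnap2 turned to 20% with strong peaks and to 46.7% without CPN 2. The 28 genes of kinases, phosphodiesterases, growth factors and GTPase regulators had a share of 37.1%, with Frmd4a, a cell polarity scaffold, at 34 and 4 and Arhgap26, a GTPase regulator, at 38 and 17. The 24 genes at common fragile sites had 54.2 regions per Mb at the median and a share of 37.6%. Wwox, the classic fragile-site tumor suppressor, had 132 per Mb with 32 CPN-only and 6 CSMN-only regions. The 13 genes known mainly outside neurons had a share of 39.3%. Adamtsl1, an extracellular matrix gene, had 8 and 15 there, and Gpc6, a glypican, 18 and 13. Adamtsl1 turned to 22.2% with strong peaks and Gpc6 to 57.6% with equal list lengths.

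**Figure D2:**
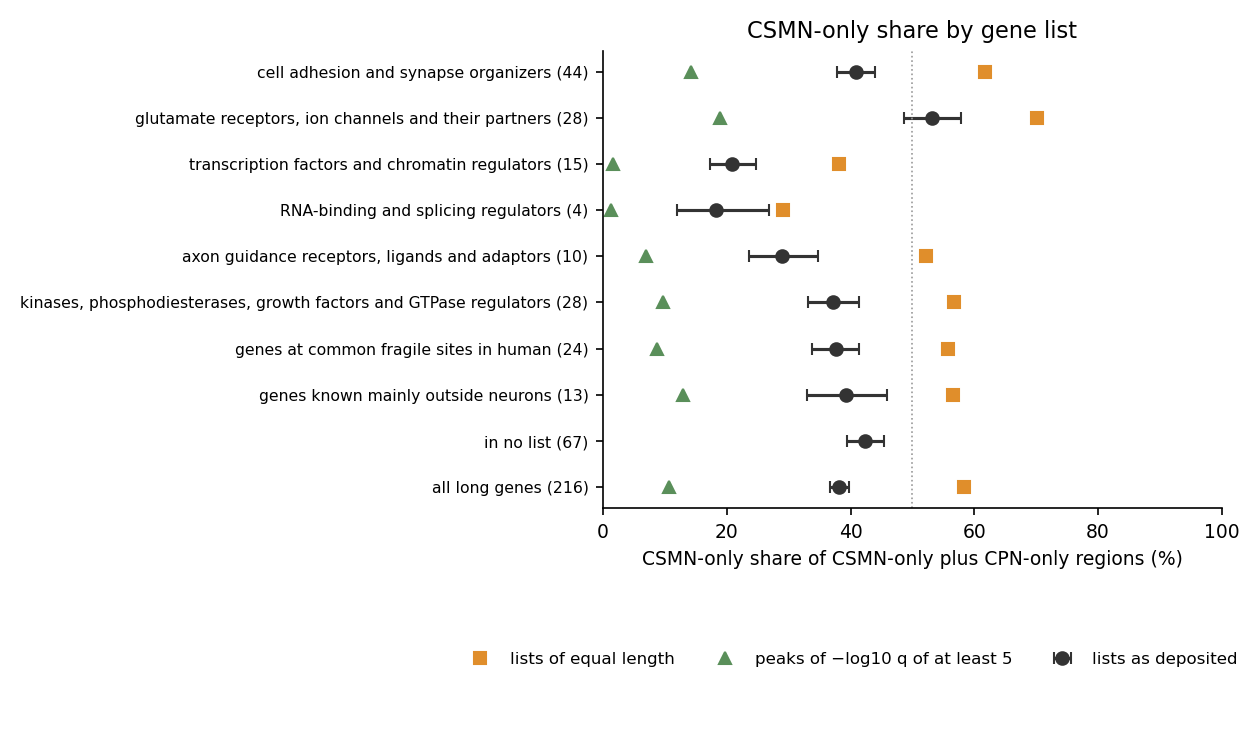
The CSMN-only share, in percent of both neuron-specific classes, for 8 gene lists, long genes in no list and all long genes, with the number of long genes in brackets. Black points with 95% Wilson intervals use the lists as deposited, orange squares lists of equal length and green triangles strong peaks (neither computed for genes in no list). The receptor and channel list is highest at 53.2% and the transcription factor and RNA-binding lists lowest at 20.8% and 18.3%.

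Single genes went to either extreme. Cdh12, a cadherin, had 0 CPN-only and 11 CSMN-only regions (100%, interval 74.1 to 100) beside 10 in all 3 libraries. Its peaks numbered 15 in CPN 1, 15 in CPN 2 and 25 in CSMN. Cadps2, which encodes a protein that primes dense-core vesicles for release, had 2 and 21 (91.3%, 73.2 to 97.6), with 16, 19 and 35 peaks. Dpp10 had 1 and 14, Malrd1, a gene of bile acid regulation in the gut, 1 and 13, Sugct, a mitochondrial coenzyme A transferase, 1 and 13, and Nkain2, a sodium pump partner, 2 and 14. In all 6 genes the CSMN list held more peaks than either CPN list, although it was shorter than both. The 6 genes were chosen by a share built from the same peaks, so these counts are no separate support. At equal list lengths their shares lay between 87.5% and 100%. With strong peaks they lay between 50% and 83.3%, the lowest that of Nkain2, on few regions.

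At the CPN side, Atrnl1, an attractin family gene, counted 14 regions of the CPN-only class and 0 of the CSMN-only class (0%, interval 0 to 21.5), with 21, 26 and 6 peaks in CPN 1, CPN 2 and CSMN. Magi1 had 25 and 1 (3.85%, 0.682 to 18.9), with 49, 59 and 14 peaks. Cdkal1, a tRNA-modifying enzyme gene, had 23 and 1, Rbms3 19 and 1, and Cacna2d3 16 and 1. At equal list lengths the share of these 5 lay between 7.69% and 42.1%, the highest that of Cdkal1. Magi1 and Magi2, which encode scaffolds of 1 family, had intervals that did not overlap, 3.85% (0.682 to 18.9) and 64.5% (46.9 to 78.9), but with strong peaks both were at 0%.

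**Figure D3:**
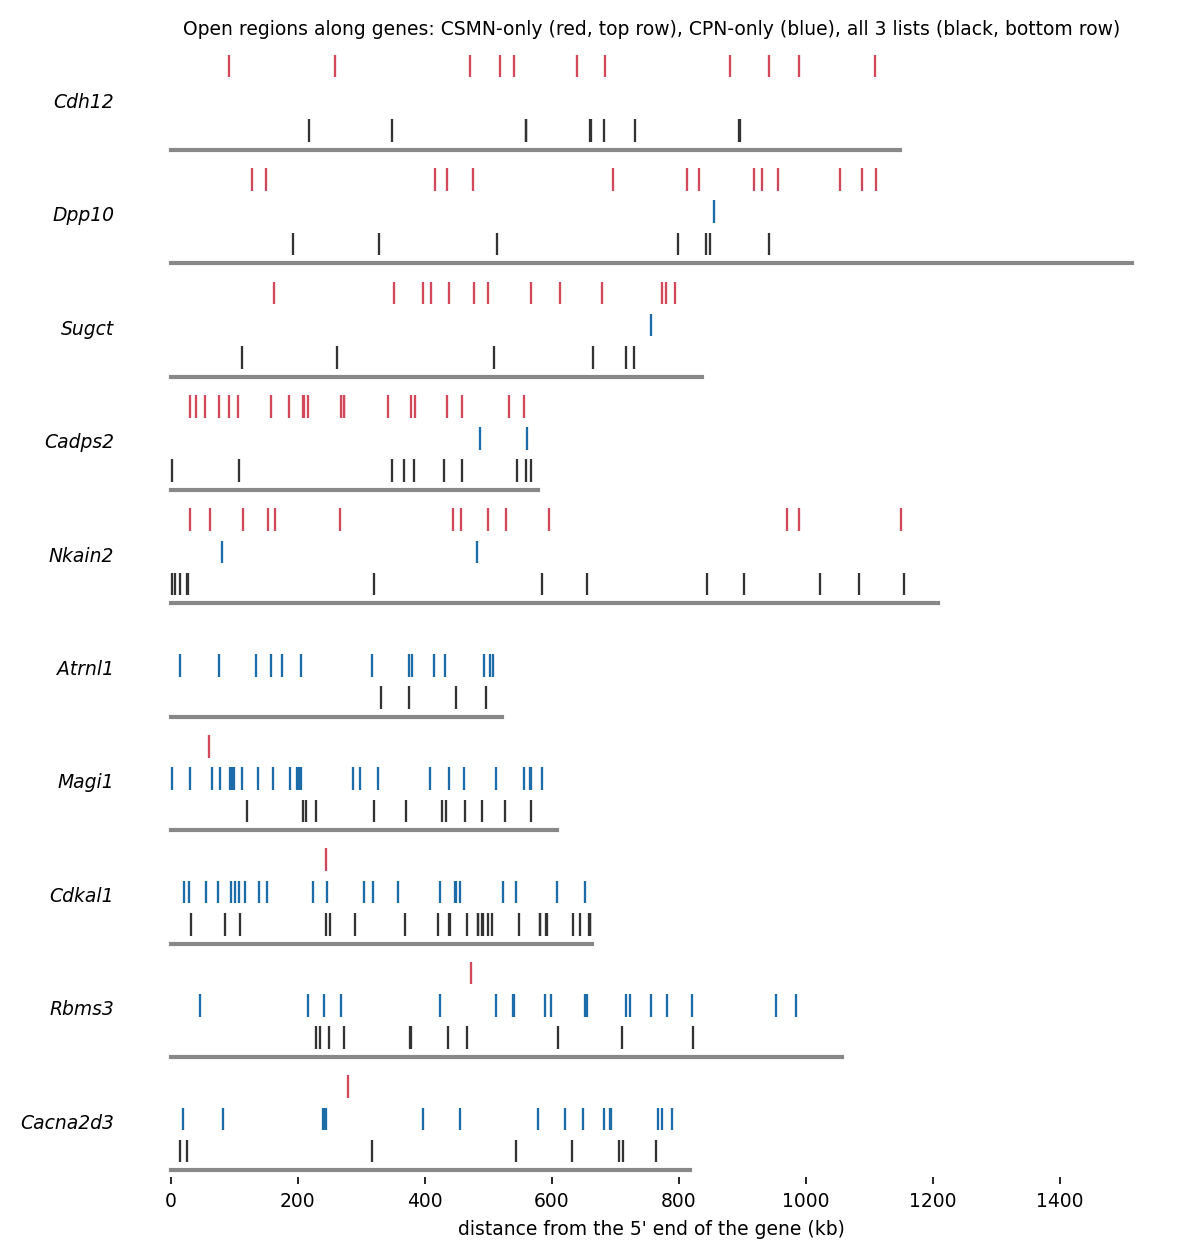
Positions of open regions along 10 of the 11 named genes at the high or low end of the CSMN-only share, those with a known strand, by distance from the 5′ end in kb. Red ticks are CSMN-only regions, blue ticks CPN-only regions, black ticks regions in all 3 libraries and the gray bar the gene. In Cdh12, Dpp10, Sugct, Cadps2 and Nkain2 the 11 to 21 red ticks appear by eye to spread along the gene. In the other 5 the blue ones do, at 14 to 25.

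On the map of positions the regions of a class appeared spread along these genes and not gathered at 1 place. This was judged by eye and not measured. Relative peak density uses the same peaks without merging. This measure, the peaks per Mb of a gene over the peaks per Mb of all protein-coding gene bodies in the same list, was 0.415, 0.410 and 1.42 for Cadps2 in CPN 1, CPN 2 and CSMN, and 1.21, 1.21 and 0.541 for Magi1. Malrd1 had 0.0617, 0.0342 and 0.483.

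**Figure D4:**
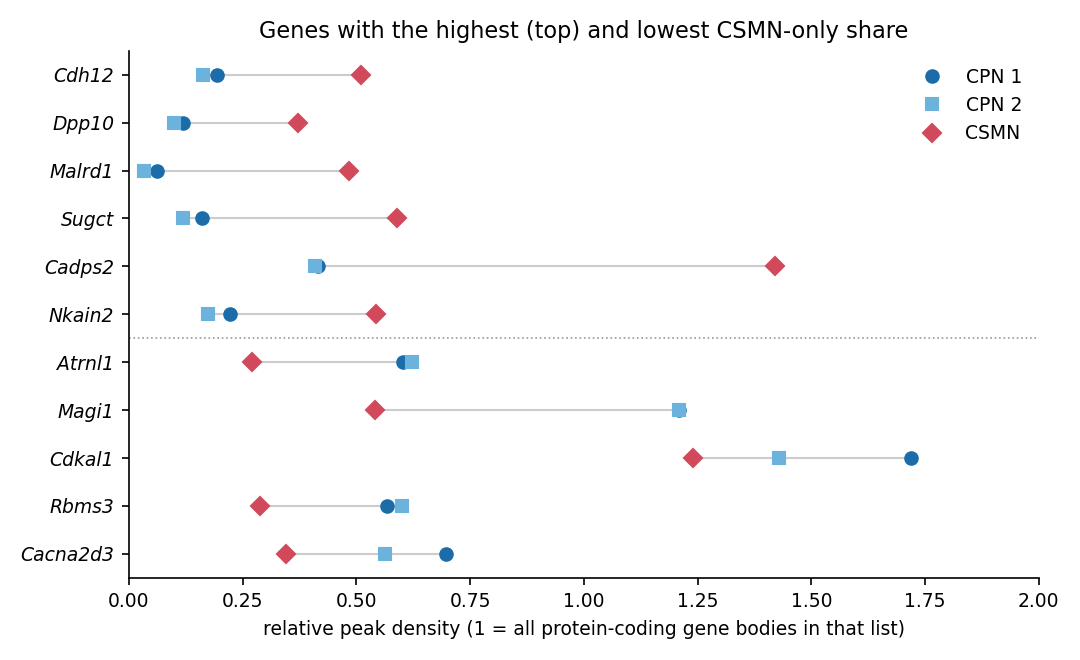
Relative peak density (horizontal axis, 1 is the mean over all protein-coding gene bodies of that list) in CPN 1 (dark blue circles), CPN 2 (light blue squares) and CSMN (red diamonds) for the 6 genes with the highest and the 5 with the lowest CSMN-only share. The CSMN point lies to the right of both CPN points in the upper 6 genes and to the left in the lower 5. The genes were chosen by a share built from the same peaks, so this order follows in large part from the choice.

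Across the long genes the CPN replicates ranked the genes almost alike. On the scale of log2(relative density + 0.1) Pearson's r was 0.99 between CPN 1 and CPN 2, 0.73 between CPN 1 and CSMN and 0.74 between CPN 2 and CSMN, over 216 genes that share annotation and length. The median distance between CPN 1 and CPN 2 was 0.132 log2 units and its largest value 0.622, whereas CSMN lay a median of 0.452 units from the CPN mean and up to 1.99 units. The CSMN distance was the larger of these in 180 of 216 genes. These distances were computed for the long genes alone, so no share over other genes stands beside the counts. CSMN had the fewest peaks there, 5526 against 7901 in CPN 1 and 8992 in CPN 2. Its median relative density was the highest, 0.662 against 0.614 and 0.585. The part of either in the distances was not tested. CSMN was more than 1 log2 unit above the CPN mean in 26 genes and more than 1 unit below it in 5, Sdk1, Csmd2, Magi1 and Rgs6 among them. After Malrd1 the largest positive distances were those of Cntnap5c (1.80), Cadps2 (1.57), Sugct (1.53), Galnt13 (1.51) and Iqcm (1.49).

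CSMN relative density was lower than in both CPN lists in 66 of the 216 long genes (30.6%), against 41.9% of the 2313 genes of at least 100 kb, and higher than in both in 129 (59.7%), against 42.8%. With CPN 1 set apart in the same way the counts were 39 lower and 56 higher, and with CPN 2, 110 lower and 30 higher. The CPN 2 counts show that a shift of this kind also arises between replicates, at distances of 0.132 log2 units at the median. By list, CSMN was higher in 22 of the 28 receptor and channel genes and lower in 5, and lower in 11 of the 15 transcription factor genes and higher in 4.

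The CSMN peaks were spread more evenly over the long genes. Over the 216 genes the SD of log2(relative density + 0.1) for CPN 1, CPN 2 and CSMN was 0.922, 0.968 and 0.727, and with strong peaks 0.891, 0.938 and 0.796. In genes of 100 to 500 kb this was not so, with 1.14, 1.11 and 1.17, and with strong peaks 1.16, 1.14 and 1.40. In the 54 long genes lowest in CPN 1, median relative densities of CPN 1, CPN 2 and CSMN were 0.225, 0.175 and 0.426, and CSMN was above CPN 2 in 51 of them. In the 54 highest in CPN 1 the medians were 1.30, 1.27 and 1.19, and CSMN was below CPN 2 in 38. A list that orders the genes is itself at its extremes there, so the genes were also ordered by CSMN. The 54 lowest in CSMN then had medians of 0.263, 0.243 and 0.363, with CSMN above CPN 2 in 33, and the 54 highest had 1.2, 1.2 and 1.24, so the order at the upper end turned. With strong peaks the 54 lowest in CSMN had 0.303, 0.264 and 0.296, and CSMN was above CPN 2 in 26 of them and below it in 27. The CSMN list also had the lower median fold, and the part of background peaks in this was not tested.

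Regions were more frequent toward the 3′ end of the gene. The strand was given for 169 of the 216 genes by their listed start sites. In the stretch from 10 to 50 kb from the 3′ end there were 108 regions per Mb (99.9 to 116), against 69.1 (63.0 to 75.6) at the same distance from the 5′ end, and from 50 to 100 kb there were 95.8 (89.3 to 103) against 67.1 (61.7 to 72.9). From 250 to 500 kb the 2 sides had 71.3 and 71.1. The 5′ side was denser in the first 1 to 10 kb, at 103 per Mb (87.1 to 120) against 86.0 (71.8 to 102), with overlapping intervals, and there 46.8% of regions were in all 3 libraries.

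**Figure D5:**
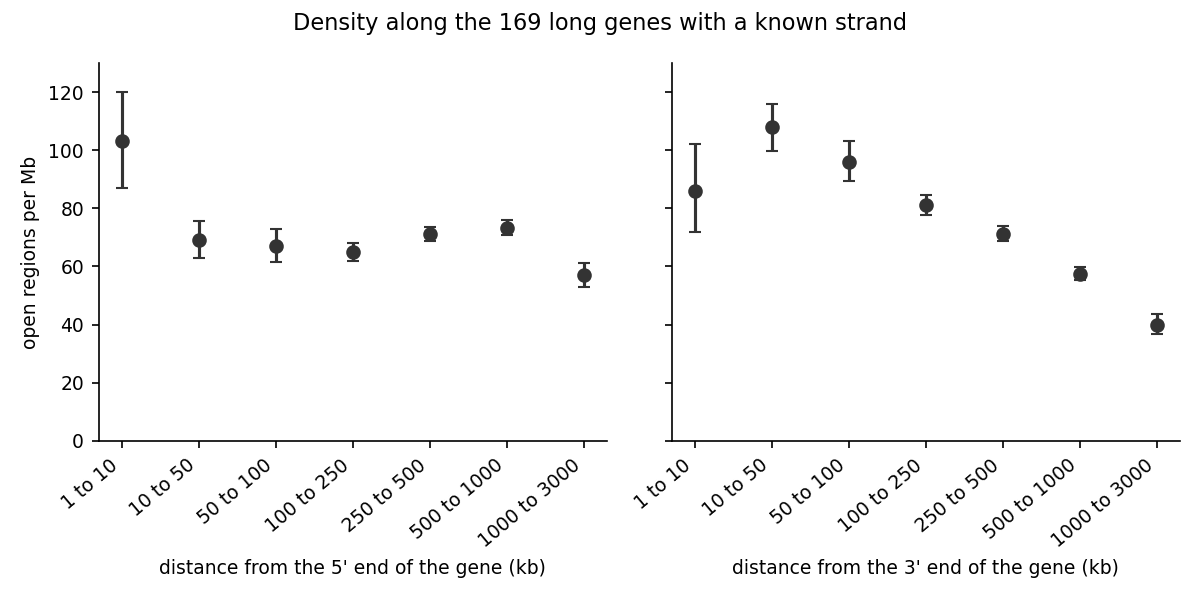
Open regions per Mb by distance from the 5′ end (left) and from the 3′ end (right), in kb, for the 169 long genes with a known strand, with 95% exact Poisson intervals. Density is 86.0 per Mb at 1 to 10 kb from the 3′ end and 108 at 10 to 50 kb, and falls from there to 40 in the last bin. It runs between 57.1 and 73.4 beyond 10 kb from the 5′ end. The last bin holds 41 genes, all longer than 1000 kb. Genes of 1000 kb and over have a lower density as a class, 49.3 per Mb, so distance and gene length are mixed there.

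Each library showed the same excess. The part of the gene beyond its midpoint, counted from the 5′ end, held 55.8% of the CPN 1 peaks (54.6 to 57.0), 56.0% of the CPN 2 peaks (54.9 to 57.1) and 55.7% of the CSMN peaks (54.2 to 57.1). It held more regions in 104 of the 169 genes (61.5%) and fewer in 55. In genes of 100 to 500 kb it held more regions in 820 of 1603 (51.2%) and fewer in 632. There the part beyond the midpoint held 51.3%, 51.6% and 51.8% of the CPN 1, CPN 2 and CSMN peaks. Tenm2 had 29 regions before and 115 after the midpoint, Celf2 35 and 82, Dab1 38 and 75, Magi2 32 and 71, and Cntnap2 23 and 61, whereas Lsamp had 45 and 49 and Macrod2 54 and 43. The most crowded 100 kb of Cntnap2, with 18 regions, began 2115 kb from the 5′ end, in the stretch that also holds an internal start 2184 kb inside with folds of 12.5, 12.4 and 10.3. Exons were not given in the annotation used here, so exonic and intronic regions were not separated.

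The strongest regions of each class, ranked by fold within the deposited lists, lay in other genes than the densest ones. Of the 5 strongest in all 3 libraries, the first was at chr19:31082615-31083373 inside Prkg1, a cyclic GMP-dependent kinase, with folds of 26.8, 28.3 and 19.1 and 36 bp from the start of Cstf2t, a gene nested in Prkg1. The third lay inside Lsamp at chr16:40968088-40968743 (22.2, 28.4 and 14.9), 252683 bp from the nearest annotated start. The fourth lay 214 bp from a start of the protocadherin gene Pcdh9, and the fifth inside 3 overlapping gene models of a protocadherin cluster on chromosome 18.

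The strongest CPN-only regions reached higher folds than the strongest CSMN-only ones, in lists that also differ in median fold. The first lay 1357 kb inside Robo2, a receptor of Slit ligands, at chr16:74089896-74090314, with 12.5 in CPN 1 and 13.9 in CPN 2. The others lay in Ctnna2, a neuronal catenin (12 and 14), Nckap5 (11.6 and 12.5), Cadm2, a synaptic adhesion molecule (11.4 and 13.7), and Auts2 (10.8 and 13.2). All 5 were more than 10 kb from any annotated start. The strongest CSMN-only region lay 460 kb inside Cntnap5b at chr1:100231507-100232196, with a fold of 7.12 and 690 bp wide, in a gene that had 10 regions in all. It was followed by regions in Galnt13, a glycosyltransferase (6.25), Dpp10 (4.95), Pcdh15, a cadherin of sensory hair cells (4.95), and Opcml, an adhesion molecule (4.86). Those in Galnt13, Pcdh15 and Opcml were 124, 140 and 158 bp wide. In the CSMN-only class, 184 regions out of 1588 consisted of strong peaks alone. The CPN-only class had 1583 such regions out of 2568. Over all regions on chromosomes 1 to 19 the CSMN-only class had 3102 out of 23383. The CPN-only class there had 23571 out of 39194. A lower part of strong regions in the CSMN-only class was therefore not particular to the long genes.

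RefSeq lists 26 microRNA hairpins inside the long genes, 5 with a region within 1 kb, in bodies of which 13.5% lies within 1 kb of a region, and 3 with a region found in all 3 libraries: Mir153 in Ptprn2, Mir1904 in Pde4d and Mir7656 in Slc9a9. The region that touched the Mir153 hairpin, chr12:117250319-117250817, had folds of 4.30, 4.14 and 2.65, and another 637 bp away had 2.98, 3.39 and 3.0. The region 26 bp from the Mir1904 hairpin was stronger, with 9.75, 9.14 and 6.53, and that 11 bp from the Mir7656 hairpin had 3.82, 4.53 and 3.73. A mature form of each is shown 5′ to 3′ from RefSeq, with the seed, bases 2 to 8, in capitals, since these are the microRNAs of long genes beside shared open chromatin. No seed is shared among them.
mmu-miR-153-3p: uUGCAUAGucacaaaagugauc
mmu-miR-1904: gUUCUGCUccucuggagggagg
mmu-miR-7656-5p: uGUGGGAUcagauagccuguua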

How the data were processed

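Peaks of 3 ATAC-seq libraries (2 CPN, 1 CSMN) were used as deposited, called per library. Per the submitters' processing notes the tools were BWA 0.7.17, MACS2 2.2.7.1 and bedtools 2.29.2 on mm10; filters and transposase shift are not given in the labels. Scores as deposited are 10 times the −log10 q cut to a whole number, within 1. The deposited fold is the enrichment ratio over local background at the summit. The −log10 p and −log10 q values are likewise the authors'. Read depth is unknown.

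From these, regions, densities, shares and relative densities were computed with Python 3.11.15, numpy 2.4.6, pandas 2.3.3 and scipy 1.17.1, drawn with matplotlib 3.10.9 and tested on simulated peak lists. No test across genes was run. Gene positions came from RefSeq (GRCm38.p6). The members and the 8 gene lists (413 distinct genes, 149 long genes in at least 1 list) were chosen with earlier results of these data known. A region inside more than 1 long gene (117 regions) counts once in totals and for each gene in gene values. Named by rule were the 6 longest, densest and sparsest genes, the 6 with the highest and lowest CSMN-only share among genes with at least 10 such regions, the 3 genes with the most regions per list and the 5 strongest regions per class. Some genes and a region under these rules are not reported here. Genes named beside these were chosen after their values were seen. Alternatives changed the peak threshold, list length, overlap, gene length, end distance, nested genes, region width and CPN library. The orderings by density in 1 list, the list shares within density groups, the midpoint counts and the list shares under alternatives were chosen after seeing the data.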

Additional observations from a re-analysis of the deposited data

Results flagged for a closer look

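The X chromosome was left out by the definition of the regions. Its 11 protein-coding genes of at least 500 kb held 80 regions in 10.4 Mb, a signal in data that no comparison above uses. This was 7.66 regions per Mb (6.07 to 9.53), below the 21.2 per Mb of X-linked genes of 100 to 500 kb. Dmd, the dystrophin gene, had 19 regions, 8 of them in all 3 libraries, Fgf13 had 9, and Dach2 had 0.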

How the results depend on the processing

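No paired analysis was possible because CSMN had 1 library. Main values were 12140 regions, 67.6 per Mb, a ratio of 0.578 to genes of 100 to 500 kb, 26.6% in all 3 libraries, a CSMN-only share of 38.2% and 66 genes with CSMN density below both CPN lists. With −log10 q of at least 5 there were 7023 regions, 39.1 per Mb, a ratio of 0.606, 29.8% in all 3 libraries and a share of 10.8%. Lists of equal length gave 48.0 per Mb, a ratio of 0.622, 32.2% in all 3 libraries and a share of 58.3%, the direction of the share turning. A stricter overlap of the shorter peak gave 69.5 per Mb, 25.2% and 40.7%. Genes of at least 1000 kb gave 3608 regions, 49.3 per Mb, a ratio of 0.422, 28.9%, a share of 43.4% and 13 genes, with fewer genes counted. Regions of at least 150 bp gave 51.9 per Mb, 34.4% and 32.1%. Leaving out either CPN library gave 54.2 to 59.6 per Mb, ratios of 0.578 to 0.602, 33.1% to 36.2%, shares of 27.1% to 30.6%, 9747 to 10718 regions and 71 to 81 genes, fewer libraries then defining each class. Setting CPN 1 or CPN 2 apart in place of CSMN turned the share, to 85.1% and 88.8%. The 2 alternatives on end distance and other genes left these 6 results within their counting intervals or 1.5 times their counts. Among named genes whose interval excluded 50%, the share turned in Dlg2 with strong peaks (20%) and in Tenm4 (62.5%) and Slit3 (61.5%) with equal list lengths, and 9 of the 42 named genes, with intervals that held 50%, crossed it under some alternative (5 with equal list lengths, 4 with strong peaks); except where the construction says otherwise, the cause was not tested. Depth is unknown, and the CSMN list had the lowest folds.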
